A study of Mus musculus with 20 samples.

Results

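The first hour after addition of a stimulation cocktail was followed by comparing stimulated with untreated mouse libraries at 15 min, 30 min and 1 h, 3 libraries per arm and 6 of the 20 in the series. The libraries were chosen by their treatment and time labels, and each stimulated library was paired with the untreated one of its time. The stimulated libraries were labelled LPS, IL4, TGFb and the untreated ones None, with spleen as the tissue, and genotype, strain and age are not stated in the sources used here. The design text gives 1 treated and 1 untreated mouse, so each arm is 1 animal. The pair at 0 min served as a baseline and was not tested. Libraries were poly-A messenger RNA, 1 per arm and time. Times stood in for replicates: p-values measure how a difference varied between times, not between animals. Both arms of a time were never in the same sequencing lane. Arm and animal cannot be told apart at a single time or over all times. With time as a factor, lane cannot be told apart from treatment either.

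Lipopolysaccharide (LPS), a bacterial cell wall component, is sensed by Toll-like receptor 4, which signals to NF-kB and to the MAP kinases. Interleukin 4 (IL-4) acts through JAK kinases and the transcription factor STAT6, and transforming growth factor beta (TGFb) through SMAD proteins. In B cells the combination is used to induce AID, the enzyme of antibody class switching. Within minutes such signals act on immediate early genes, whose transcription needs no new protein synthesis: AP-1 and EGR transcription factors, phosphatases that switch MAP kinases off again, and proteins that speed the decay of short-lived messenger RNAs. Induced inhibitors such as Tnfaip3 and the SOCS proteins then feed back on the pathways that raised them.

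Counts summed to between 46731739 and 60918651 in the 6 libraries, and 3 counts, taken as the floor of detection, corresponded to 0.0473 to 0.0729 CPM over these and the 0 min pair (CPM is the count per gene divided by the scaled library total). B cell markers summed to between 3179 and 3359 CPM in the stimulated and between 3121 and 3219 CPM in the untreated libraries, with 0 of 12 at 0 in all 6. Of these, Cr2 had at most 5 counts and Faim3 at most 30 in any of the 6, both under the filter. Plasma cell markers summed to between 1392 and 1642 CPM and between 1292 and 1389 CPM. Sdc1 and Tnfrsf17 of that list had at most 4 counts each, so the plasma cell sums came from its other members. Markers of cells a whole spleen also holds were low: the T cell list reached 66.7 CPM, the macrophage and monocyte list 61.7 CPM, the erythroid list 1.59 CPM and the neutrophil list 0.367 CPM. Cd14, C1qa, C1qb and C1qc, S100a8, S100a9, Ly6g and Hbb-bs were at 0 in all 6 libraries. The NK cell list summed to between 17.02 and 18.3 CPM in the stimulated and between 14.03 and 15.1 CPM in the untreated libraries (17.01 and 15.0 CPM at 0 min), and its part in the results was not tested. None of the 11 marker lists had a gene that passed the test between arms. The neutrophil, erythroid, and mast cell and basophil lists had 0 genes tested, and the NK cell and platelet lists 1 each. With 0.598% of all genes tested higher and 1.64% lower, 0 calls in lists this short say little about cell make-up. In bulk libraries fewer cells of a type and less RNA per cell cannot be told apart. On chromosome 17, 133 of 176 protein-coding genes between 33 and 37 Mb (GRCm38) had under 20 counts over all 20 libraries, against 268 of 807 on the rest of that chromosome. Tnf, Lta, Hspa1a and Hspa1b lie there and are listed at 0, as nearly are Rps18 with 14 counts and Ndufa7 with 1, which most cells use, so their zeros were not read as absence of expression.

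The promoters of 4 of the higher genes are shown as examples, taken from the RefSeq table (GRCm38.p6). All 4 were among the named genes with the largest log2 fold changes. Some named higher genes with smaller p-values than Csrnp1, such as Zfp36l1, Egr1 and Dusp2, are not shown. Each window runs from 250 bases before to 50 bases after the start of transcription, 5′ to 3′ on the strand of the gene. Capitals mark matches on either strand to the CRE (TGACGTCA), the AP-1 site (TGANTCA), the TATA box (TATAAA), or the CArG box, kB site and STAT site. Zfp36 lies at chr7:28379179-28379478 on the minus strand, Fos at chr12:85473640-85473939 on the plus strand, Dusp1 at chr17:26508423-26508722 on the minus strand and Csrnp1 at chr9:119984693-119984992 on the minus strand, its most upstream of 4 listed starts.
Zfp36: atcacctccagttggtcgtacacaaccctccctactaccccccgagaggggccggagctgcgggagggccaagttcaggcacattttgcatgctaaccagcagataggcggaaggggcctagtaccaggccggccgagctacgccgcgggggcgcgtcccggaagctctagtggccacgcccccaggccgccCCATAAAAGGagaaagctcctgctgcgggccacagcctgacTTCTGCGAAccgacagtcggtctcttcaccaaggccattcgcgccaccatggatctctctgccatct
Fos: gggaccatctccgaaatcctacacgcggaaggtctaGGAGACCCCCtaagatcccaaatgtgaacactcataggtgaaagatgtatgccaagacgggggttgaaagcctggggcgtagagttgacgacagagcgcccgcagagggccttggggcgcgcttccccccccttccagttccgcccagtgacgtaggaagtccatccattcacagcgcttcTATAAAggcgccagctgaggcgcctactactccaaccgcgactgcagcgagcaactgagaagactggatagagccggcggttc
Dusp1: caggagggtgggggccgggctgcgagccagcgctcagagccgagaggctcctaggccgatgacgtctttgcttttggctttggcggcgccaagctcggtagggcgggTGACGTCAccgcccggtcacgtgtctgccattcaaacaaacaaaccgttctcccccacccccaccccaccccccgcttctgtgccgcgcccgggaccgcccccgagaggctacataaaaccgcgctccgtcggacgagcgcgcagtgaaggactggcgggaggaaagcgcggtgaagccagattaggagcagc
Csrnp1: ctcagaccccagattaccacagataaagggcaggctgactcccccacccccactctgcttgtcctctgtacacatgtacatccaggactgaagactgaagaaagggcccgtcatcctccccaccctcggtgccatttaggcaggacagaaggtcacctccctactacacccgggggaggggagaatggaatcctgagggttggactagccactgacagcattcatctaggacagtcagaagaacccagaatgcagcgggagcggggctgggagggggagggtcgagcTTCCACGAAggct
The Zfp36 window held a CArG box, the element bound by serum response factor, 58 bases before the start, and a STAT site 17 bases before it. Fos held a TATA box 33 bases and a kB site 214 bases before the start. Dusp1 held a CRE 143 bases before the start, and Csrnp1 a STAT site 37 bases after it. Of 32851 promoters of this length in the table, 1.79% held the CRE, 7.81% the AP-1 site, 13.6% the TATA box, 1.63% the CArG box, 4.51% the kB site and 14.6% the STAT site. A match describes the letters only. Shares of motifs over all called genes were not compared, because promoters were at hand for 49 of the 72 higher and 136 of the 198 lower genes.

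In the first hour 72 of 12042 genes were higher in the stimulated libraries (0.598% of genes tested) and 198 were lower (1.64%), at an adjusted p under 0.05 in edgeR's quasi-likelihood test, while 2014 had an unadjusted p under 0.05. The higher genes were fewer, and a larger part of them differed strongly: 25 of the 72 and 22 of the 198 differed by over 2-fold. A mean under 5 CPM in the 6 libraries was found for 6 of the 72 and 43 of the 198. The median log2 fold change of the higher genes was 0.55, against -0.43 for the lower genes and 0.0085 for all genes tested. All 270 had the same sign at each of the 3 times, which their choice for a difference over these times favours. Of all 12042 genes tested, 3970 lay above and 2377 below the untreated library at all 3 times. The arms did not overlap for 67 of the 72 higher and 128 of the 198 lower genes, which were chosen for a difference; over all genes tested the stimulated libraries lay wholly above for 1762 (14.6%) and wholly below for 785 (6.5%). Without the 15 min pair 37 genes were higher and 21 lower, without the 30 min pair 4 and 4, and without the 1 h pair 14 and 62. With lane as a term and time as a spline, an alternative chosen after the data were seen, 0 genes passed in either direction and 815 had an unadjusted p under 0.05. Relative to the 0 min pair 0 also passed, 267 had an unadjusted p under 0.05, and 65 of the 72 and 196 of the 198 kept their sign. The 8 genes that passed with each pair left out in turn were Zfp36, Zfp36l1, Neat1, Ndor1, Ogt and the unnamed models Gm6477, Gm1821 and B130055M24Rik. Gm6477 differed to a like degree at 0 min, so passing every leave-out does not separate a prior difference from a later one.

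The higher and the lower genes differed in their course, which was not tested between them. Among 9611 genes with a mean of at least 5 CPM, 1 was over 2-fold higher at 0 min (0.0104%) and 1 over 2-fold lower (0.0104%). The counts were 6 higher (0.0624%) and 7 lower (0.0728%) by 15 min. By 30 min they were 24 higher (0.25%) and 2 lower (0.0208%), and by 1 h 58 higher (0.603%) and 2 lower (0.0208%). These compare single libraries and carry no test. The median log2 ratio of the 72 higher genes was 0.21 at 0 min, 0.41 at 15 min, 0.57 at 30 min and 0.63 at 1 h. For the 198 lower genes it was -0.10, -0.47, -0.43 and -0.34, so their lowest median was at 15 min. The slope of the difference over the 3 times was called for 0 genes upward (0%) and 0 downward (0%) by edgeR, with 268 genes at an unadjusted p under 0.05, 193 of them upward. DESeq2 called a slope for 23 genes and limma-voom for 5.

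**Figure D1:**
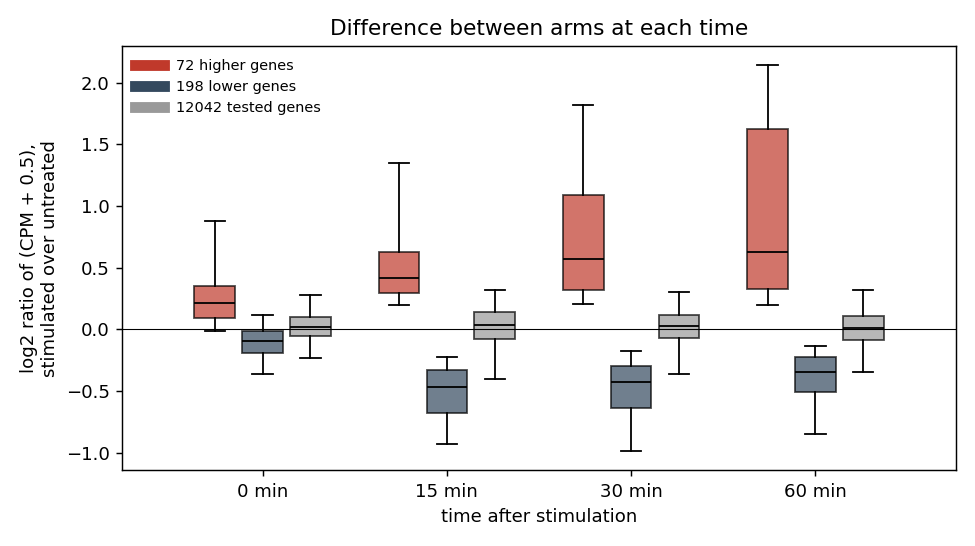
Box plots of the log2 ratio of CPM + 0.5, stimulated over untreated (y axis), at 0, 15, 30 and 60 min (x axis) for the 72 higher, the 198 lower and all 12042 tested genes; the box spans the quartiles, the line is the median and whiskers reach the 5th and 95th percentiles over genes. The higher genes have medians of 0.21, 0.41, 0.57 and 0.63, and the lower genes -0.10, -0.47, -0.43 and -0.34.

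The levels of these genes differed from 0 min in both arms. Relative to its own 0 min library, the median log2 change of the 72 higher genes in the stimulated arm was 0.12 at 15 min, 0.14 at 30 min and 0.16 at 1 h. In the untreated arm it was -0.07, -0.12 and -0.13, and 52 of the 72 stood below their 0 min level at 1 h, as did 5200 of all 12042 genes. The 198 lower genes had a median of -0.30 in the stimulated arm at 15 min, with 179 below 0 min (3920 of all 12042 genes), and returned to -0.06 at 30 min and 0.07 at 1 h. In the untreated arm the same genes were at 0.08, 0.26 and 0.34. The corresponding medians over all genes tested lay between 0.02 and 0.06 in either arm. These are changes between single libraries and were not tested. The genes were chosen for the difference between arms in these same libraries, which favours opposite courses in the 2 arms.

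Immediate early transcription factors made up part of the higher genes. Of 22 tested members of the 26 listed, 10 were higher and 0 lower, 12 did not pass, and 19 lay above the untreated library at all 3 times, as did 3970 of all 12042 genes. Over all genes tested 0.598% were higher and 1.64% lower, the shares to set beside the counts of this and the later lists. The immediate early list's median log2 fold change was 0.82, against 0.0085 for all genes, and its median log2 ratio was 0.09 at 0 min and then 0.40, 0.77 and 1.30 at the 3 times. The 10 were Fos, Jun, Junb, Egr1, Ier2, Ier3, Ier5, Klf6, Klf10 and Csrnp1. Of these, 9 stood lower at 1 h than at 0 min in the untreated arm, and 9 stood higher at 30 min than at 0 min in the stimulated arm. Among all 22 tested members the counts were 17 and 19. Without the 15 min pair 8 members passed, without the 30 min pair 0 and without the 1 h pair 1, and 0 passed with lane or relative to 0 min.

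Jun, an AP-1 subunit, had 12.5, 35.4 and 30.0 CPM in the stimulated libraries at 15 min, 30 min and 1 h, against 5.78, 4.10 and 3.05 CPM in the untreated ones. At 0 min it had 9.36 and 6.78 CPM. The arms did not overlap, and Jun had the largest log2 fold change among the named genes, 2.48 ± 0.47 (SE; adjusted p = 0.024). Fos, its partner in AP-1, started at 56.3 CPM in the stimulated and 39.9 CPM in the untreated arm. It then had 59.6, 48.2 and 18.1 CPM with the cocktail and 20.1, 12.4 and 3.92 CPM without. The highest untreated value exceeded the lowest stimulated one, so the arms overlapped, although the stimulated library was above its pair at every time (log2 fold change 1.88 ± 0.29, adjusted p = 0.01). With DESeq2 Fos did not pass (adjusted p = 0.053). Egr1, a zinc finger transcription factor, had 110, 115 and 59.6 CPM against 52.8, 34.4 and 13.1 CPM, with 97.7 and 81.5 CPM at 0 min. The stimulated values all lay above the untreated ones, and the highest were at 15 and 30 min. Ier2, a nuclear immediate early protein, had 141, 212 and 170 CPM against 75.1, 67.5 and 46.7 CPM. Its log2 fold change was 1.46 ± 0.17 (adjusted p = 0.0033), with no overlap.

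Csrnp1, a nuclear DNA-binding protein, had 82.5, 115 and 127 CPM with the cocktail and 51.9, 52.4 and 32.0 CPM without. Junb, another AP-1 subunit, had 387, 506 and 583 CPM against 261, 270 and 188 CPM, and its log2 fold change was 1.01 ± 0.19 (adjusted p = 0.023). Klf6, a Krüppel-like factor, had 118, 154 and 172 CPM against 90.0, 89.9 and 80.2 CPM. Among the 3 times after 0 min, these 3 genes had their highest stimulated value at 1 h and their highest untreated value at 15 or 30 min. The arms did not overlap. At 0 min Csrnp1 had 69.1 CPM in the stimulated and 58.9 CPM in the untreated arm, and Klf6 104 and 95.5 CPM. For both genes the untreated 0 min value lay above each later untreated value. Members that did not pass included Nr4a1, an orphan nuclear receptor, with 384, 664 and 848 CPM against 319, 339 and 209 CPM (log2 fold change 1.06, adjusted p = 0.18). Nr4a1 was named after its values were seen. Among the named members Ier2 lost its call only without the 30 min pair, Jun, Egr1, Klf6 and Csrnp1 without the 30 min or the 1 h pair, and Fos and Klf10 without any 1 of the 3.

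**Figure D2:**
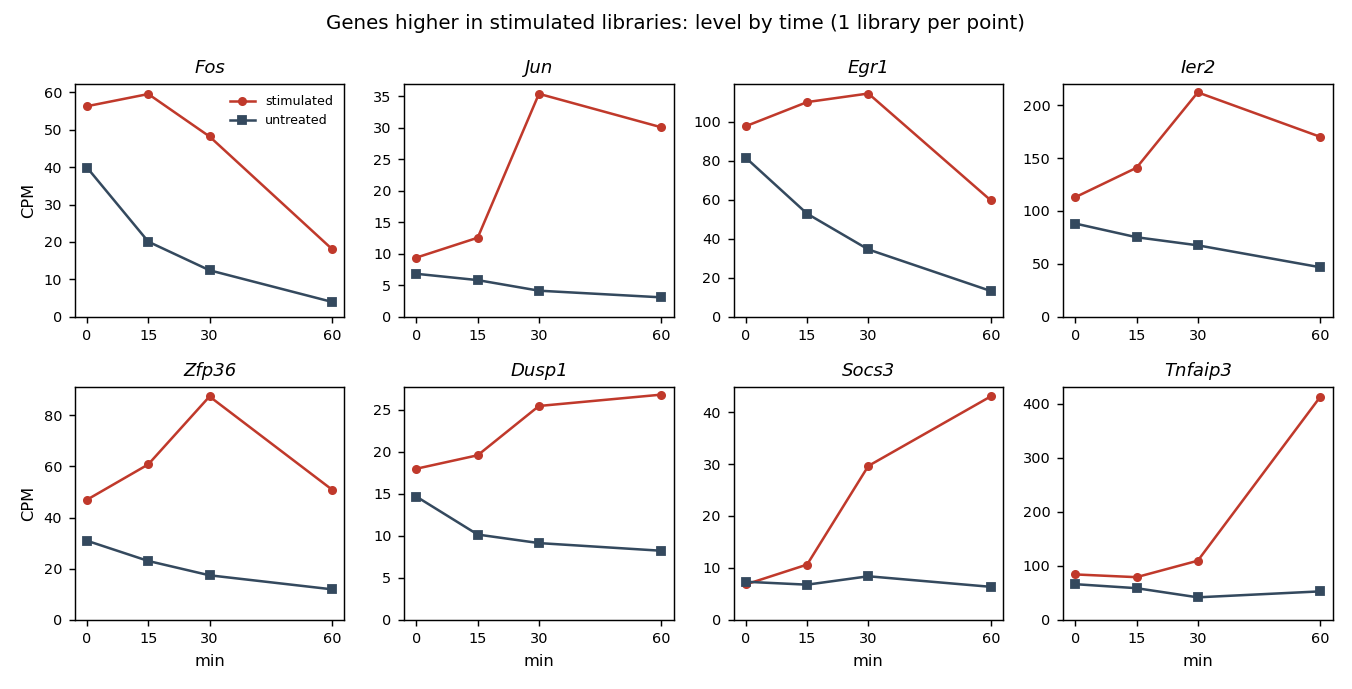
CPM (y axis, from 0) against minutes after stimulation (x axis, to scale) for 8 genes that were higher in stimulated libraries; each point is 1 library, circles stimulated and squares untreated. Fos, Egr1 and Zfp36 are lower at 60 min than at 0 min in the untreated arm, while Tnfaip3 reaches 412 CPM in the stimulated arm at 60 min.

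Regulators of messenger RNA decay were higher in 4 of 12 cases and lower in 0 (median log2 fold change 0.26). Zfp36, which binds AU-rich elements and promotes decay of cytokine messenger RNAs, had 60.8, 87.4 and 50.9 CPM with the cocktail and 23.0, 17.4 and 11.9 CPM without, from 47.0 and 30.9 CPM at 0 min. Every stimulated library was above every untreated one, with the highest at 30 min (log2 fold change 1.92 ± 0.15, adjusted p = 0.00036). Its relative Zfp36l1 had a smaller fold change, with 366, 398 and 425 CPM against 237, 201 and 207 CPM (0.86 ± 0.08, adjusted p = 0.00091). Both passed with each pair left out in turn. Btg2, an antiproliferative protein that recruits a deadenylase, had 168, 204 and 164 CPM against 125, 111 and 71.8 CPM, and started level at 144 and 145 CPM. Zc3h12a (Regnase-1), an endonuclease of inflammatory messenger RNAs, had 51.6, 66.1 and 85.4 CPM against 36.5, 39.5 and 31.0 CPM. Btg2 and Zc3h12a lost their calls without the 30 min or the 1 h pair.

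Phosphatases and other feedback genes of the MAP kinases were higher in 2 of 11 cases and lower in 0 (median 0.49), and 9 of the 11 were above the untreated library at all 3 times, as were 3970 of all 12042 genes. Dusp1, which dephosphorylates p38, JNK and ERK, had 19.6, 25.4 and 26.8 CPM against 10.1, 9.12 and 8.20 CPM (log2 fold change 1.36 ± 0.22, adjusted p = 0.013). Dusp2, a phosphatase of lymphoid and myeloid cells, had 342, 518 and 611 CPM against 214, 227 and 198 CPM (1.15 ± 0.17, adjusted p = 0.0088). In both the arms were apart at every time and furthest apart at 1 h. Neither passed without the 30 min or without the 1 h pair.

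In the NF-kB pathway the 2 genes that passed were inhibitors or feedback genes. None of 17 tested genes of Toll-like receptor 4 sensing passed in either direction (median 0.01), nor did any of the 5 NF-kB subunits (median 0.17). Only 0.598% of all genes tested were higher and 1.64% lower, so 0 calls in lists this short do not set them apart. Cd180, a Toll-like receptor homologue of B cells and the gene of the sensing list with the most counts, had 408, 438 and 479 CPM with the cocktail and 461, 476 and 603 CPM without (adjusted p = 0.11). Rel, the c-Rel subunit, had 213, 303 and 486 CPM against 212, 263 and 239 CPM (adjusted p = 0.28), so the arms were level at 15 min and apart at 1 h. Of 17 inhibitors and feedback genes 2 were higher and 0 lower (median 0.14), and 0 were higher with a filter of 5 CPM in 3 libraries. Tnfaip3 (A20), a ubiquitin-editing inhibitor, had 78.8, 109 and 412 CPM against 58.4, 41.5 and 52.5 CPM, with a log2 fold change of 1.58 ± 0.36 (adjusted p = 0.049). Nfkbiz (IkB-zeta), a nuclear IkB protein, had 34.4, 97.8 and 150 CPM against 33.1, 37.5 and 46.7 CPM, and overlapped with the untreated arm at its 15 min value. Nfkbia (IkB-alpha), named after its values were seen, had 137, 253 and 571 CPM against 132, 119 and 139 CPM and did not pass (adjusted p = 0.092). Tnfaip3 and Nfkbiz lost their calls without the 30 min or the 1 h pair.

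Of 9 tested cytokine and chemokine genes 0 passed (median 0.33), where 0.598% of all genes tested were higher and 1.64% lower. Ccl22, a chemokine that attracts cells bearing CCR4 and the one with the most counts, had 1368, 1387 and 2007 CPM with the cocktail and 1419, 1284 and 1516 CPM without (adjusted p = 0.56). Tnfsf9 (4-1BB ligand) had 242, 258 and 313 CPM against 222, 223 and 190 CPM (adjusted p = 0.39). The other 16 of 25 listed members, Tnf, Il6 and Il1b among them, fell under the filter of 1 CPM in 3 libraries. Tnf and Lta lie in the stretch of chromosome 17 where most genes had few counts in any library. Their zeros were not read as absence of expression.

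Of 16 genes linked to IL-4 and STAT6, 2 were higher and 0 lower (median 0.16), both of them suppressors of cytokine signalling. Socs3, which blocks JAK kinases, had 10.6, 29.6 and 43.1 CPM against 6.76, 8.38 and 6.34 CPM, and began level with 6.81 and 7.32 CPM at 0 min. Its log2 fold change was 1.74 ± 0.33 (adjusted p = 0.025), and every stimulated library was above the untreated ones. Socs1 had 21.8, 35.4 and 62.0 CPM against 19.2, 17.3 and 22.02 CPM (0.89 ± 0.20, adjusted p = 0.044), with its 15 min value just under the untreated 1 h value. In the TGFb and SMAD list 1 of 18 was higher and 0 lower (median 0.15). That gene was Klf10, also known as TGFb-inducible early gene, with 10.4, 16.9 and 22.3 CPM against 7.22, 6.58 and 6.29 CPM. Smad7, the inhibitory SMAD, was singled out after its values were seen: it had 26.7, 41.5 and 110 CPM against 20.8, 29.3 and 34.0 CPM and did not pass (adjusted p = 0.082). Socs1 and Socs3 lost their calls without the 30 min or the 1 h pair, and Klf10 without any 1 pair. With a filter of 5 CPM in 3 libraries Socs1 and Klf10 did not pass (adjusted p = 0.053 for both), which left 1 gene of the IL-4 and 0 of the TGFb list.

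Among surface molecules of activation and migration 2 of 14 were higher and 0 lower (median 0.18). Cd69, an early activation antigen that holds lymphocytes in tissue, had 354, 655 and 683 CPM with the cocktail and 175, 140 and 80.9 CPM without, from 303 and 229 CPM at 0 min. The arms did not overlap and were furthest apart at 1 h, and the log2 fold change was 2.09 ± 0.30 (adjusted p = 0.0082). Cxcr4, a chemokine receptor, had 134, 122 and 126 CPM against 106, 93.0 and 85.7 CPM (0.41 ± 0.06, adjusted p = 0.0088): the stimulated values lay around the 124 CPM of 0 min, and each untreated value lay below the 122 CPM of its own 0 min library. Cd69 lost its call without the 30 min pair, and Cxcr4 without the 30 min or the 1 h pair.

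Genes of survival and death were higher in 4 of 19 cases and lower in 0 (median 0.22), in 2 cases when scaled by library totals alone and in 1 with a filter of 5 CPM in 3 libraries. Pim1, a serine/threonine kinase that promotes survival, had 303, 435 and 636 CPM against 227, 213 and 159 CPM (1.13 ± 0.25, adjusted p = 0.045). Its relative Pim3 had 84.2, 99.5 and 106 CPM against 65.7, 66.4 and 61.9 CPM. Bcl2a1b, an antiapoptotic BCL2 protein with near-identical copies among which reads may be split, had 149, 147 and 186 CPM against 120, 115 and 120 CPM. Pmaip1 (Noxa), which promotes apoptosis, was the fourth, with 105, 106 and 102 CPM against 86.1, 84.8 and 83.2 CPM. No library of any of the 4, which were chosen for a difference, overlapped with the other arm. Over all genes tested the stimulated libraries lay wholly above for 14.6%. The 4 include genes that promote and genes that block death. Pmaip1 and Btg2 were the 2 of 17 p53 targets that were higher (0 lower, median 0.14), and only Btg2 passed when scaled by library totals alone or with that filter. Gadd45g, a stress sensor, was among the 12 largest higher genes with 5.40, 9.40 and 10.1 CPM against 3.28, 3.39 and 2.56 CPM (1.37 ± 0.31, adjusted p = 0.047). Pim1 lost its call without the 30 min or the 1 h pair, and Pim3, Bcl2a1b, Pmaip1 and Gadd45g without any 1 pair.

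Among the named lower genes the largest difference was that of Neat1. This gene, the long noncoding RNA that scaffolds paraspeckles, had 34.9, 43.3 and 47.6 CPM with the cocktail and 75.2, 70.1 and 118 CPM without, from 60.4 and 66.8 CPM at 0 min. Every stimulated library lay below every untreated one (log2 fold change -1.06 ± 0.11, adjusted p = 0.0015), and the call held with each pair left out. Of 11 tested nuclear long noncoding RNAs and snoRNA hosts 0 were higher and 4 lower (median -0.18), the others being Snhg3, Snhg4 and Snhg7. Snhg3, host of snoRNAs, had 17.8, 18.7 and 23.9 CPM against 28.8, 25.5 and 33.7 CPM, with no overlap. Malat1, named after its values were seen, had 104, 175 and 177 CPM against 164, 227 and 234 CPM (adjusted p = 0.071). Snhg3 lost its call without the 30 min pair, and Snhg4 and Snhg7 without any 1 pair.

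Splicing factors and CLK kinases had 0 higher and 8 lower of 29 tested genes (median -0.20), and 21 of the 29 lay below the untreated library at all 3 times, as did 2377 of all 12042 genes. The 8 were Arglu1, Pnisr, Leng8, Clk4, Ccnl2, Srsf10, Luc7l and Clk2. Leng8 had 44.1, 63.9 and 79.5 CPM against 78.9, 113 and 113 CPM (log2 fold change -0.74 ± 0.09, adjusted p = 0.0033), and its 1 h stimulated value reached the untreated 15 min one. Arglu1, an arginine-rich nuclear protein, had 56.5, 64.0 and 77.7 CPM against 76.0, 90.3 and 95.7 CPM. Pnisr, an SR-related nuclear protein, had 68.5, 79.1 and 78.0 CPM against 95.2, 109 and 104 CPM, and did not overlap. Clk4, a kinase of SR splicing proteins, had 37.9, 44.6 and 51.9 CPM against 48.8, 63.2 and 60.2 CPM. The stimulated arm was lowest at 15 min in all 4, and the list's median log2 ratio was -0.05 at 0 min, -0.24 at 15 min, -0.22 at 30 min and -0.07 at 1 h. Without the 15 min pair 3 of the list passed, without the 30 min pair 0 and without the 1 h pair 6, and 0 passed with lane or relative to 0 min.

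**Figure D3:**
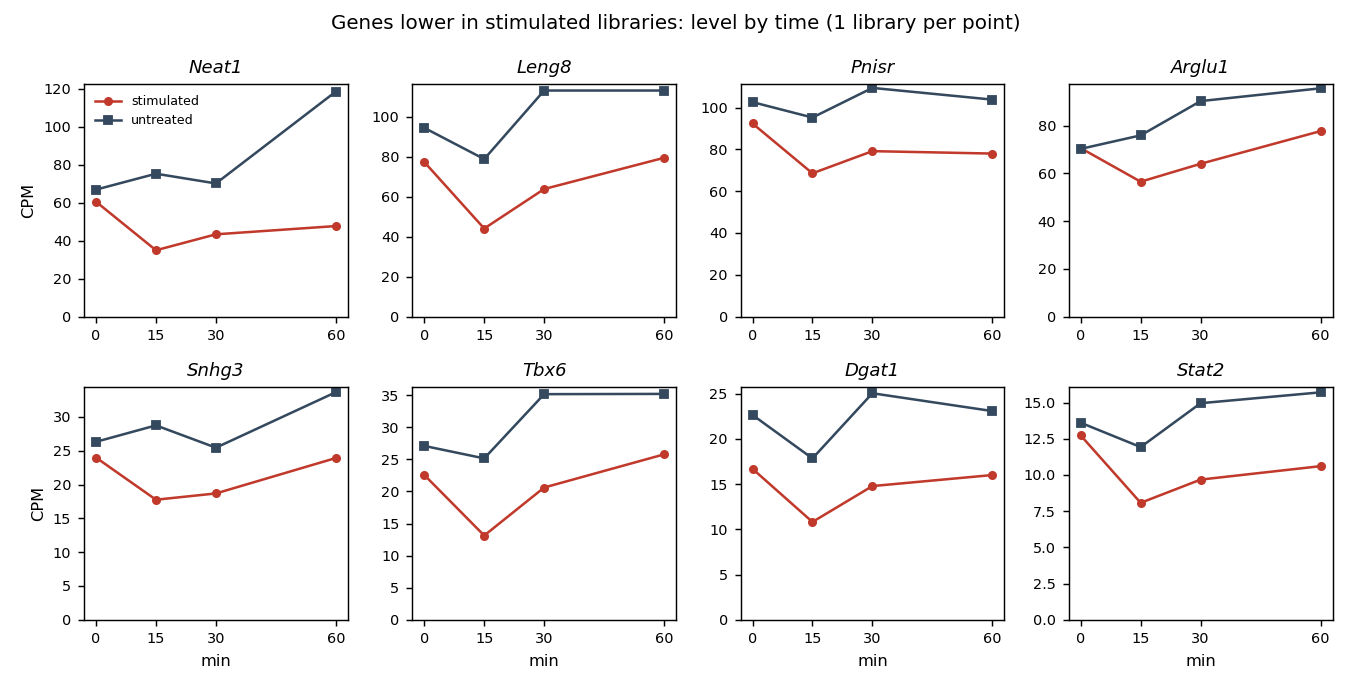
CPM (y axis, from 0) against minutes after stimulation (x axis, to scale) for 8 genes that were lower in stimulated libraries; each point is 1 library, circles stimulated and squares untreated. In each of the 8 the stimulated library is below its untreated pair at 15, 30 and 60 min, for Neat1 with 34.9 against 75.2 CPM at 15 min.

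Other lower genes had varied roles. Rhbdl1, of the rhomboid protease family, had 2.78, 4.68 and 4.49 CPM against 5.98, 9.76 and 8.71 CPM (log2 fold change -1.06 ± 0.15, adjusted p = 0.0062). Ndor1, a flavoprotein of iron-sulfur cluster assembly, had 24.4, 32.0 and 34.4 CPM against 43.0, 48.0 and 48.3 CPM (-0.65 ± 0.07, adjusted p = 0.0017). Dgat1, which completes triglyceride synthesis, had 10.8, 14.8 and 16.01 CPM against 17.9, 25.1 and 23.1 CPM, but had 16.7 and 22.7 CPM already at 0 min, and its log2 fold change of -0.69 was -0.23 relative to that pair. In Rhbdl1, Ndor1 and Dgat1 all stimulated libraries lay below all untreated ones. Ogt, the enzyme that adds O-linked N-acetylglucosamine to nuclear proteins, was singled out because it passed with each pair left out: it had 115, 146 and 141 CPM against 189, 225 and 203 CPM (-0.64 ± 0.05, adjusted p = 0.00036). Tbx6, a T-box transcription factor, had 13.1, 20.6 and 25.8 CPM against 25.2, 35.2 and 35.2 CPM and overlapped by its 1 h value. Stat2, a mediator of interferon signalling, was the 1 gene of 9 tested interferon-stimulated genes that passed (0 higher, 1 lower), with 8.08, 9.68 and 10.6 CPM against 11.9, 15.0 and 15.7 CPM, and its call was lost without the 30 min pair.

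The remaining named lower genes were Bscl2, Mlst8, Noxo1, Trmt13, Snord2 and Ppifos, with log2 fold changes between -0.66 and -0.96. Mlst8 is a subunit of the mTOR complexes, and Bscl2 (seipin) acts in lipid droplet formation. Snord2 (chromosome 16, 23108953 to 23109021, plus strand) is a small nucleolar RNA inside Eif4a2, which was itself lower at -0.34, so reads of the host can count for it. Ppifos (chromosome 14, 25696974 to 25701282) overlaps Ppif on the other strand, and since the strand setting is not given, its reads cannot be told from those of Ppif, whose log2 fold change was -0.15 (adjusted p = 0.21). Mlst8, Bscl2, Noxo1, Trmt13, Ndor1, Leng8 and Rhbdl1, and of the higher genes Jun, Zfp36, Dusp1 and Csrnp1, also overlap a gene on the opposite strand. Of the 12 named lower genes only Neat1 and Ndor1 kept their calls without the 30 min pair. Relative to 0 min the log2 fold changes of Mlst8, Noxo1, Trmt13, Tbx6 and Leng8 were -0.28, -0.31, -0.41, -0.45 and -0.43. Without the 15 min pair Rhbdl1, Ppifos, Snord2, Noxo1, Tbx6, Trmt13, Bscl2 and Mlst8 lost theirs, and without the 1 h pair Snord2, Noxo1 and Trmt13. By RefSeq biotype 23 of the 174 lower genes with a match were long noncoding RNAs (13.2%), against 0 of 71 higher genes and 4.9% of all genes tested.

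**Figure D4:**
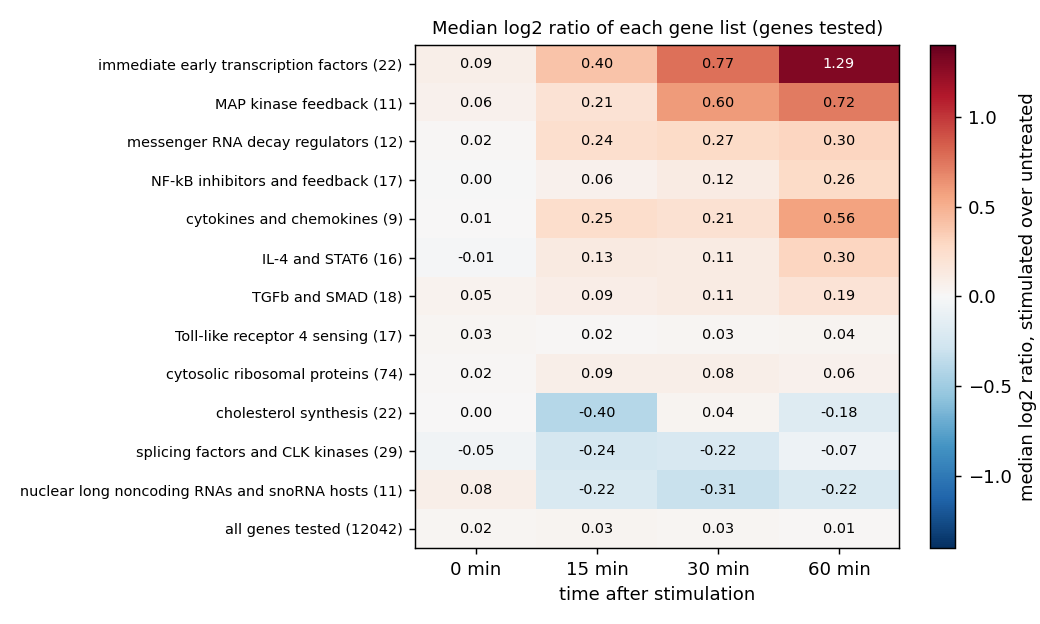
Median log2 ratio of CPM + 0.5, stimulated over untreated (colour and printed value), for 12 gene lists and all genes tested (y axis, number of tested genes in brackets) at 0, 15, 30 and 60 min (x axis). The immediate early list goes from 0.09 to 1.30, and the splicing list is lowest at 15 min with -0.24.

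Of 74 tested cytosolic ribosomal protein genes 7 were higher (9.46%, against 0.598% of all genes tested) and 0 lower, with a median of 0.06. Without the 15 min pair 2 of the 74 passed, without the 30 min pair 0, without the 1 h pair 3, and relative to 0 min 0. Rpl27 had 308, 295 and 316 CPM against 244, 236 and 244 CPM (0.32 ± 0.04, adjusted p = 0.0047), and Rps14 had 1076, 1047 and 1122 CPM against 904, 846 and 899 CPM. The same direction was there before the cocktail: Rpl27 had 290 and 248 CPM at 0 min, and Rps19, with a log2 fold change of 0.24, had a log2 ratio of 0.38 at 0 min and -0.11 relative to that pair. Ribosomal protein genes have many processed copies, among which reads may be split. Rpl27 lost its call without the 30 min pair, Rps14 without the 30 min or the 1 h pair and Rps19 without the 15 min or the 30 min pair. Of 74 respiratory chain genes 1 was higher and 0 lower (median 0.01), Ndufb3 of complex I, with 48.8, 46.9 and 44.5 CPM against 38.3, 35.9 and 38.0 CPM. Ndufb3 had 44.8 and 37.7 CPM at 0 min, its log2 fold change of 0.30 was 0.07 relative to that pair, and its call was lost without any 1 pair. None of 33 ribosome biogenesis genes (median -0.08), 22 cholesterol synthesis genes (median -0.21) or 10 heat shock chaperones (median -0.04) passed in either direction. Over all genes tested 0.598% were higher and 1.64% lower, so 0 calls were near those shares. Npm1, a nucleolar chaperone, had 4439, 4240 and 4566 CPM against 4512, 4191 and 4410 CPM. Cyp51, a demethylase of sterol synthesis, had 206, 216 and 246 CPM against 265, 203 and 272 CPM, and its list's median log2 ratio was -0.40 at 15 min, 0.04 at 30 min and -0.18 at 1 h. Hspa8, a constitutive chaperone, had 1038, 1164 and 1464 CPM against 1351, 1223 and 1609 CPM (adjusted p = 0.14).

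The baseline pair already leaned the same way for many called genes. At 0 min 66 of the 72 higher genes were above and 156 of the 198 lower genes below their pair, where 6962 of all 12042 genes were above. For 26 of the 72 and 35 of the 198 the log2 ratio at 0 min exceeded 50% of the early log2 fold change, and for 7 and 1 it exceeded all of it. Gm6477, an unnamed model chosen after its values were seen, was the extreme, with 32.0, 31.1 and 29.4 CPM against 9.54, 8.44 and 10.4 CPM, and 35.5 against 9.77 CPM at 0 min. Rpl10, Rps19 and Gm6477 were among the 7. The log2 ratio at 0 min was 0.44 for Jun, 0.49 for Fos, 0.26 for Egr1 and 0.36 for Ier2, beside early log2 fold changes of 2.48, 1.88, 1.63 and 1.46. Relative to the 0 min pair the log2 fold change was 0.79 for Klf10, 0.52 for Zfp36l1, 0.12 for Pmaip1, 0.12 for Rpl27, 0.15 for Rps14, -0.30 for Pnisr and -0.19 for Snhg7. Whether the 0 min libraries differ through the animal or the lane cannot be told apart.

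The early genes were followed to 2, 3 and 6 h. At those times 1228 genes were higher (10.2%) and 1235 lower (10.3%). Of the 72 early higher genes 17 passed as higher there too, 4 were lower and 51 did not pass. Of the 198 early lower genes 98 passed as lower there too, 5 were higher and 95 did not pass. The 2 comparisons share no library but share the estimate of spread and the same 2 animals. At 0 min 66 of the 72 and 156 of the 198 already leaned the same way. A standing difference between the animals or lanes cannot be told apart here from a lasting effect of the cocktail. Tested as a difference, 431 genes (3.58%) had a larger value at 2 to 6 h than in the first hour and 338 (2.81%) a smaller one; scaled by library totals alone the split was 238 and 525. The smaller ones included 26 of the 72 early higher genes, and the larger ones 46 of the 198 early lower genes. In the opposite direction these were 2 and 3 genes, and over all genes tested 2.81% were smaller and 3.58% larger. The early value is subtracted in this difference, and the 72 and 198 were chosen for it. That choice favoured these directions, so the counts are no separate evidence of a passing response. Without the 15 min pair the counts were 64 and 77, without the 30 min pair 74 and 73, and without the 1 h pair 192 and 146.

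Jun had a log2 fold change of -0.56 at 2 to 6 h against 2.48 before, a difference of -3.03 ± 0.64 (adjusted p = 0.023). Fos, Zfp36 and Btg2 had differences of -2.28, -2.22 and -2.15. Btg2 turned from 0.81 to -1.33 and passed in both phases. Plk2, a polo-like kinase, had 470, 528 and 348 CPM against 309, 373 and 271 CPM in the first hour, where it did not pass, and -2.10 later. The largest positive difference among the named genes was that of Stat5a, at 1.87 ± 0.12. Stat5a, a transcription factor downstream of cytokine receptors, had 33.7, 32.7 and 34.3 CPM against 32.4, 32.6 and 29.6 CPM and a log2 fold change of 1.94 at 2 to 6 h. Ahr, the aryl hydrocarbon receptor, Il2ra, a subunit of the IL-2 receptor, and Gpr183, an oxysterol receptor that guides B cells, had early log2 fold changes of -0.02, -0.05 and 0.24 and later ones of 1.79, 1.63 and 1.87. Rnf19b, a ubiquitin ligase, was already at 56.9 against 12.6 CPM at 1 h, from 12.2 against 11.4 CPM at 15 min. Neat1 was further down later, at -1.86, and this difference passed (adjusted p = 0.013).

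**Figure D5:**
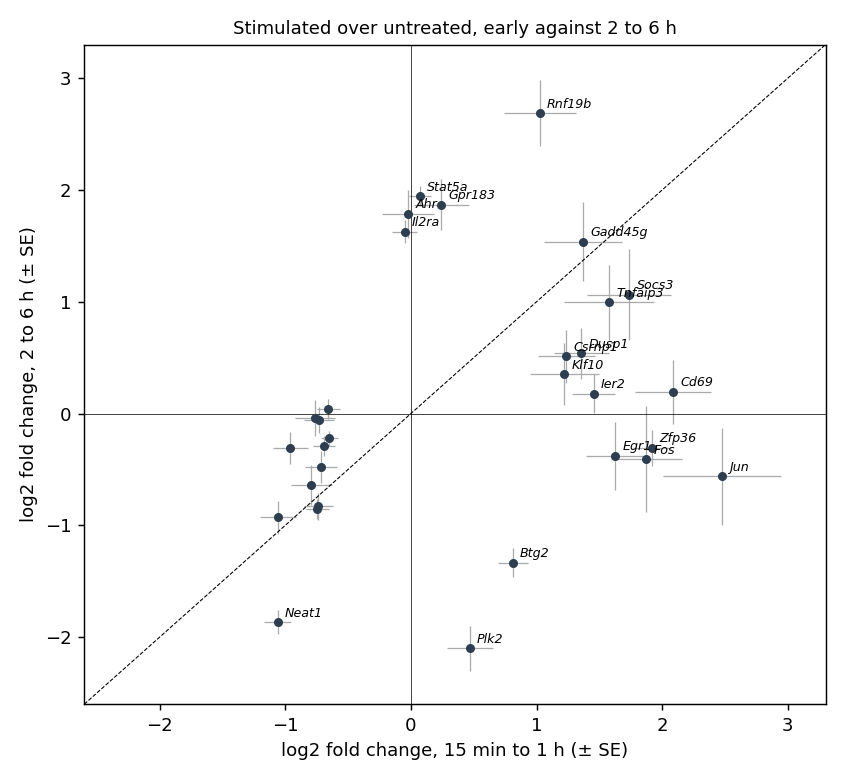
Log2 fold change, stimulated over untreated, at 2 to 6 h (y axis) against that at 15 min to 1 h (x axis) for the 24 named early genes and the genes named for the difference between the phases; bars are SE of the fit and the dashed line marks equality. Jun, Fos, Zfp36 and Egr1 lie far below the line, and Stat5a, Ahr and Il2ra near 0 on the x axis and above 1.6 on the y axis.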

How the data were processed

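The deposited values are raw counts per gene, 1 table per library, made by the authors with STAR and HTSeq (builds GRCm38.p3 and mm10), per the submitters' processing notes; their versions and settings, strand included, are not stated there. The filter was 1 CPM in 3 or more of the 18 libraries after 0 min, and the genes past it were tested (12042 of 41115). In edgeR 4.0.16 (R 4.3.3; TMM scaling, quasi-likelihood F-test, Benjamini-Hochberg adjustment, threshold 0.05) time was a factor and treatment had 1 coefficient for each phase (15 min to 1 h, 2 to 6 h, later), leaving 6 residual degrees of freedom. SE is the log2 fold change divided by the square root of F. Single-time log2 ratios use CPM + 0.5. Alternatives used DESeq2 1.42.0, limma 3.58.1 (voom), other scalings, filters and libraries. Named genes are the 12 largest higher and 12 largest lower log2 fold changes with a mean of at least 5 CPM and 1 sign at 3 times, 5 in each direction for the phase difference, and up to 4 called members of each list (2 most abundant where none was called); the text gives a selection. Unnamed models were left out. The comparison, lists and rules were chosen with earlier results of these data known. The fits were tested on simulated data. Gene positions are from GENCODE vM21. The spans given for depth and the floor run from the lowest to the highest library. Some items are not reported here.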

Additional observations from a re-analysis of the deposited data

Results flagged for a closer look

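The treatment difference at 2, 3 and 6 h differed from that in the first hour for 431 genes in the positive and 338 in the negative direction, by the test of the difference in edgeR. The named genes with the largest positive differences, on the log2 scale, were Stat5a at 1.87, Ahr at 1.81, Il2ra at 1.68, Rnf19b at 1.66 and Gpr183 at 1.63. Those with the largest negative differences were Jun at -3.03, Plk2 at -2.57, Fos at -2.28, Zfp36 at -2.22 and Btg2 at -2.15. All 5 of the second set stood above their untreated pair at 15 min, 30 min and 1 h, as did 3970 of all 12042 genes. The early difference is subtracted in this measure, so the choice of the second set favoured such a pattern.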

How the results depend on the processing

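Genes higher and lower in the first hour numbered 72 and 198. They numbered 112 and 314 with DESeq2, 121 higher with limma-voom, 283 and 464 with no filter on low counts, 691 and 873 with only the 6 early libraries, and 172 and 359 with the early and middle libraries. With lane and a time spline they were 0 and 0, and 0 and 0 relative to the 0 min pair. Without the pairing by time (no replicate block) 5 and 2 passed. Leaving out 1 pair gave 4 to 37 higher and 4 to 62 lower. The slope within the hour was called for 23 genes with DESeq2, 5 with limma-voom, 85 with no filter and 8 with the early and middle libraries. The larger and smaller differences at 2 to 6 h, 431 and 338, became 238 and 525 when scaled by library totals alone, 651 and 750 with no filter, 31 and 28 with a spline and lane, and 908 and 679 with the early and middle libraries, and ran from 64 to 192 and 73 to 146 with 1 pair left out. The immediate early list had 10 higher genes, 20 with no filter, 18 with only the 6 early libraries, 0 to 8 with 1 pair left out, and 0 with a spline and lane, without the pairing, or relative to 0 min. The splicing list had 8 lower genes, 14 with no filter, 19 with only the 6 early libraries, 13 with the early and middle libraries, 0 to 6 with 1 pair left out, and 0 with a spline and lane, without the pairing, or relative to 0 min. Rps19 was -0.11 relative to the 0 min pair. RLE size factors gave 71 and 206. The 6-library fit has 2 residual degrees of freedom. The cause of these shifts was not tested. Lane beside the time factor was not run because lane and the phase treatments cannot be told apart there. The spline with lane and the early and middle libraries alone were chosen after the data were seen. The labels carry no replicate numbers.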

Other observations

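The higher set held 8 genes of the RefSeq class of pseudogenes among 71 with a match (11.3%), against 8 of 174 lower genes (4.6%) and 2.3% of all genes tested. Several of these copies differed at 0 min too, as Rpl34-ps1 did, with a log2 ratio of 0.88 at 0 min and an early log2 fold change of 1.05. Rpl34-ps1 was singled out after its values were seen.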
